A study of Mus musculus with 7 samples.

Results

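DNase I hypersensitive peaks that lay inside genes but away from promoters were examined in cultured mouse podocytes. A peak belonged to this group if its summit, the base with the most fragments, fell within the body of a protein-coding gene on chromosomes 1 to 19 and more than 2500 nt from the transcription start site (TSS) of every protein-coding transcript. This rule chose 423135 of the 1036304 peaks of normal glucose (NG) cells, 332679 of 846027 in high glucose with a non-targeting mimic (HG+NT) and 350354 of 900109 in high glucose with a miR-93 mimic (HG+miR-93), or 1106168 of 2782440 in all. Only position entered the rule.

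Immortalized podocytes, the epithelial cells that wrap the capillaries of the glomerulus, were growth-arrested in reduced serum and kept for 36 h in 5 mM (NG) or 25 mM (HG) glucose. HG cells were transfected with 50 nM of a non-targeting mimic or of a mimic of miR-93, a synthetic RNA that adds to the cell's own microRNA, and the labels name no mimic for NG cells, so that glucose and transfection cannot be told apart in a comparison with NG. The model is a cell line and not podocytes in the kidney. Each condition had 2 replicates and shared 1 input of genomic DNA, but the peaks came as 1 joint list per condition, so that no test between conditions was possible, and every interval given here is a 95% interval that covers counting error only. Where 3 values stand without list names, they are in the order NG, HG+NT, HG+miR-93.

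DNase I cuts DNA that is not wrapped in nucleosomes. Inside genes, such open sites are known to be enhancers, start sites of alternative or non-coding transcripts, and places where CTCF, a factor that shapes chromatin loops, is bound. In long genes the first intron is often described as rich in enhancers, whereas coding exons are thought of mainly as protein code, although some of them also bind transcription factors.

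The sequences shown first are the places that all lists held in common, since these were seen in every condition. With the 20000 strongest peaks per list taken by −log10 p, only 26 intragenic places had summits within 150 bp of each other in every condition. Of these, 7 follow, as 200 bp around the summit on the plus strand of GRCm38 (mm10), with matches to known motifs in capitals. Phf19 and Mapk8ip1 are shown for their high pileups, Trpm6, Ces1a, Anxa2 and Msi2 were the only ones of the 26 with an AP-1 motif, and Hk2 belonged to the glucose genes. In Phf19 the capitals mark GGGCGG, the KLF/SP motif, read on the minus strand as CCGCCC, and the E-box CAGCTG. In Mapk8ip1 they mark KLF/SP, in the next 4 genes the AP-1 motif TGANTCA, and in Hk2 the RUNX motif TGTGGTT read on the minus strand. These letters are a description and do not show that a factor was bound.
Phf19, chr2:34905053-34905252: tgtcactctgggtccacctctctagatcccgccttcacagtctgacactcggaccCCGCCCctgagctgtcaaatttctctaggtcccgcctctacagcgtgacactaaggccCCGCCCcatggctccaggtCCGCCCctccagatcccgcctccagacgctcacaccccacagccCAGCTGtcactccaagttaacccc
Mapk8ip1, chr2:92389466-92389665: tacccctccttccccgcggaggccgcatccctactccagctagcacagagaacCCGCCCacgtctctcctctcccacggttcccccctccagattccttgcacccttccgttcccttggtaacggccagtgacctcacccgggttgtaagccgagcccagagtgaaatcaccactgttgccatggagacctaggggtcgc
Trpm6, chr19:18890331-18890530: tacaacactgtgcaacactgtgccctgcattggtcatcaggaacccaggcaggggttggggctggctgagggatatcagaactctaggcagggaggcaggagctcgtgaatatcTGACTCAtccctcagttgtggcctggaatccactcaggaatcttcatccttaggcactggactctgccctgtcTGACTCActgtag
Ces1a, chr8:93041164-93041363: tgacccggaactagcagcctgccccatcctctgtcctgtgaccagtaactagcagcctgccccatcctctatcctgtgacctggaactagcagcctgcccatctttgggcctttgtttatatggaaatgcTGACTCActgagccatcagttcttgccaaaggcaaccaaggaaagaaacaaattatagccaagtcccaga
Anxa2, chr9:69458016-69458215: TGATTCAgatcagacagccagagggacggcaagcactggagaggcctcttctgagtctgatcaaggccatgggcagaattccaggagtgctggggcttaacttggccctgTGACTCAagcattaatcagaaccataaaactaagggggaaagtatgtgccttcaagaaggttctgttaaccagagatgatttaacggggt
Msi2, chr11:88467963-88468162: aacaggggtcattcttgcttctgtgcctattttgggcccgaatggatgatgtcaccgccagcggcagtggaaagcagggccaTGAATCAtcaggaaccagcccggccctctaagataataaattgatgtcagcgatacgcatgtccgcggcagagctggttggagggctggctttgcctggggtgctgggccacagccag
Hk2, chr6:82753318-82753517: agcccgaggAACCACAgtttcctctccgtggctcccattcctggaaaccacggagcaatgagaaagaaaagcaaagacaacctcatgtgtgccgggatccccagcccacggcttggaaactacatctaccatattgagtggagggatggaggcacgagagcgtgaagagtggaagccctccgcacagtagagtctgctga

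Phf19, which encodes an accessory subunit of the Polycomb repressive complex, held the strongest of these places, in intron 6, 246 nt from the start of another annotated transcript. Its window had 3 KLF/SP motifs. The Mapk8ip1 place, in a gene for a scaffold of the JNK kinases, lay in intron 2. Trpm6 encodes a magnesium channel and held its place in intron 38, on chromosome 19, with 2 AP-1 motifs. Ces1a, on chromosome 8, is a carboxylesterase gene with closely related neighbours, so that its reads could be shared with copies. Anxa2, which encodes a membrane protein that binds actin, held its place in intron 1 with 2 AP-1 motifs. Msi2 encodes an RNA-binding protein and Hk2 the hexokinase that starts glycolysis, with places in introns 7 and 2.

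Values at a summit are given as a pileup, the number of fragments there scaled to the depth of the input. The lists give fold and p instead, from which the fragments and the local mean of the input were recovered. The lists were 2.24 (NG), 3.85 (HG+NT) and 5.15 (HG+miR-93) times as deep as the input. The background mean of the input was 1.43 fragments. At the median intragenic summit only 6, 10 and 13 fragments were counted, and the median fold over the input was 1.31, 1.199 and 1.17. Most intragenic peaks were therefore barely above the input, and the results below rest on the strongest ones. Among the 20000 strongest, the intragenic peaks had a median fold of 2.44, 2.28 and 2.25 and 12, 18 and 24 fragments. The rule's border of 2500 nt did not separate weak from strong peaks, because the median pileup in the 500 nt before it equalled that in the 500 nt after it (3.13, 2.86 and 2.72).

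Of the 20000 strongest peaks, 32.3% (6455) were intragenic in NG, while HG+NT had 38.8% (7765) and HG+miR-93 had 41.8% (8355). The same class covers 37.2% of the bases of these chromosomes. The share was higher in both HG lists than in NG, while promoters, within 500 nt of a TSS, took 28.0%, 19.2% and 14.7%. Intergenic peaks took 33.3%, 36.6% and 37.7%, below their 56.9% of bases. Because shares add up to a whole, a list with fewer strong promoters leaves more room for every other class.

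Coding exons stood apart from the other intragenic places. They hold 1.03% of the bases but took 2.26% (2.06 to 2.48), 4.87% (4.58 to 5.18) and 6.25% (5.92 to 6.59) of the strongest peaks. This was 2.18, 4.71 and 6.04 times the share of bases. All peaks of the lists, weak ones included, were in coding exons at 1.66, 1.80 and 1.91 times that share. Exons of untranslated regions were at 1.40, 1.45 and 1.44 times theirs, with overlapping intervals. First introns were at 0.910, 0.958 and 1.02 times their bases and later introns at 0.778, 0.912 and 0.954 times. The ratio for coding exons in NG depended on how many peaks were used: among the 5000 strongest, 1.00% of NG peaks lay in them, while HG+NT had 3.98% and HG+miR-93 had 7.28%. Ordered by pileup in place of p, coding exons took 1.70%, 4.03% and 4.94%, and without chromosomes 6, 8, 15 and 19 they took 2.32%, 5.56% and 6.96%, so that the order of the lists stayed.

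**Figure D1:**
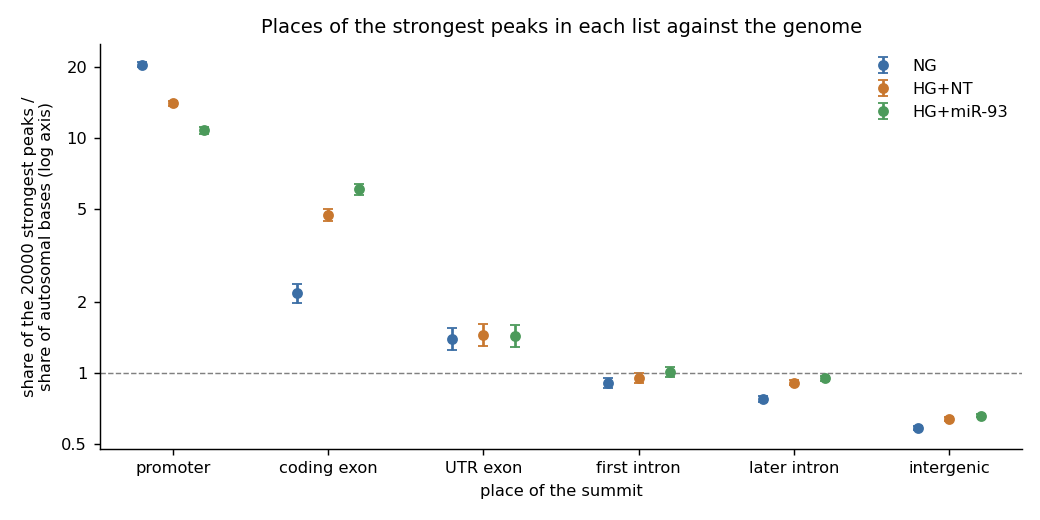
Share of the 20000 strongest peaks of each list in a class of place, divided by the class's share of the bases of chromosomes 1 to 19 (log axis), with 95% Wilson intervals; exons and introns are those more than 2500 nt from a TSS. Promoters are highest in NG at 20.4, coding exons rise from 2.18 in NG to 6.04 in HG+miR-93, and introns sit near or below 1.

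The lists differed in base composition, and coding exons are rich in G and C. The median GC content of the 200 bp around the strongest intragenic summits was 50.0%, 52.5% and 53.5%. In every list the share of intragenic peaks that were among the strongest was higher at higher GC. In NG it went from 0.532% of the peaks under 40% GC to 5.37% of those at 60% or more. In HG+NT the same classes had 0.0953% and 13.1%. In HG+miR-93 they had 0.0246% and 17.0%, the widest range. The part of this dependence in the differences between lists was not tested.

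Within GC classes, coding exons and introns could be compared at like composition, a comparison added after the data had been seen. At 60% GC or more, 15.1% (13.4 to 16.9) of coding exon peaks were among the strongest in HG+NT, against 10.9% (9.54 to 12.4) of later intron peaks. In HG+miR-93 the values were 21.5% (19.6 to 23.6) and 13.7% (12.2 to 15.3). Here the intervals of exons and later introns did not overlap in either HG list. In NG coding exons had 4.26% (3.45 to 5.24) and later introns 5.29% (4.46 to 6.28) at 60% or more, and these intervals overlapped. From 55 to 60% GC the pair was 10.7% and 7.71% for HG+NT, with 12.5% and 9.20% for HG+miR-93 and 2.85% (2.38 to 3.42) and 3.21% (2.95 to 3.49) for NG, where the intervals again overlapped. In the classes from 45 to 55% GC coding exons were above later introns in NG too. Its pair was 2.02% (1.60 to 2.53) and 1.46% (1.38 to 1.54) at 45 to 50%, and 3.29% (2.81 to 3.84) and 2.40% (2.27 to 2.53) at 50 to 55%. At 50 to 55% HG+NT had 6.04% and 4.52%, and HG+miR-93 had 6.69% and 4.21%. First introns lay between the others at 60% or more in the HG lists, at 13.8% and 15.9%, and were at 7.20% in NG.

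**Figure D2:**
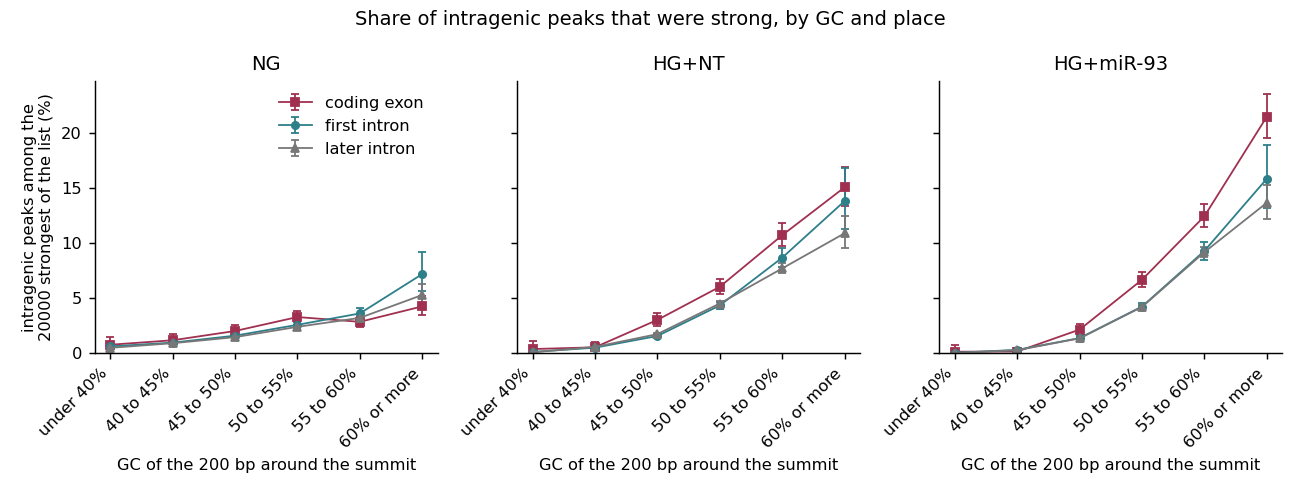
Percent of intragenic peaks that were among the 20000 strongest of their list (vertical axis) by GC content around the summit (horizontal axis), for coding exons, first introns and later introns in each list, with 95% Wilson intervals. Every line ends above its start, and coding exons end above later introns in HG+NT (15.1% against 10.9%) and HG+miR-93 (21.5% against 13.7%) while in NG (4.26% against 5.29%) their intervals overlap at that end. First introns end above coding exons in NG (7.20% against 4.26%), with intervals apart. From 45 to 55% GC coding exons are above later introns in all lists.

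First introns were slightly denser in strong peaks than later introns in NG. They held 7.60 strong summits per Mb in NG, against 6.50 in later introns, a ratio of 1.17 (1.10 to 1.24, exact interval). In HG+NT the densities were 7.99 and 7.61 and the ratio 1.05 (0.991 to 1.11). In HG+miR-93 they were 8.48 and 7.96 with a ratio of 1.07 (1.01 to 1.13). The size of this ratio rested on how peaks were ordered. By pileup it was 1.61, 1.45 and 1.37, and among the 50000 strongest peaks it was 0.986 in NG.

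The ratio varied with distance from the TSS. In NG the ratio was above 1 with an interval that left out 1 at 5 to 10 kb (1.23, 1.06 to 1.42) and at 10 to 20 kb (1.17, 1.03 to 1.34), and was 0.960 (0.777 to 1.18) beyond 100 kb. Nearest to the TSS it was below 1 in both HG lists, with an interval that left out 1 in HG+miR-93. At 2.5 to 5 kb first introns held 6.68 strong summits per Mb in HG+miR-93 against 8.75 in later introns, a ratio of 0.763 (0.632 to 0.919). In HG+NT the ratio there was 0.852 (0.705 to 1.03) and in NG 1.10 (0.911 to 1.33). Whether these ratios differ between lists was not tested. Beyond 100 kb every list had few strong summits, from 4.67 to 6.23 per Mb.

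**Figure D3:**
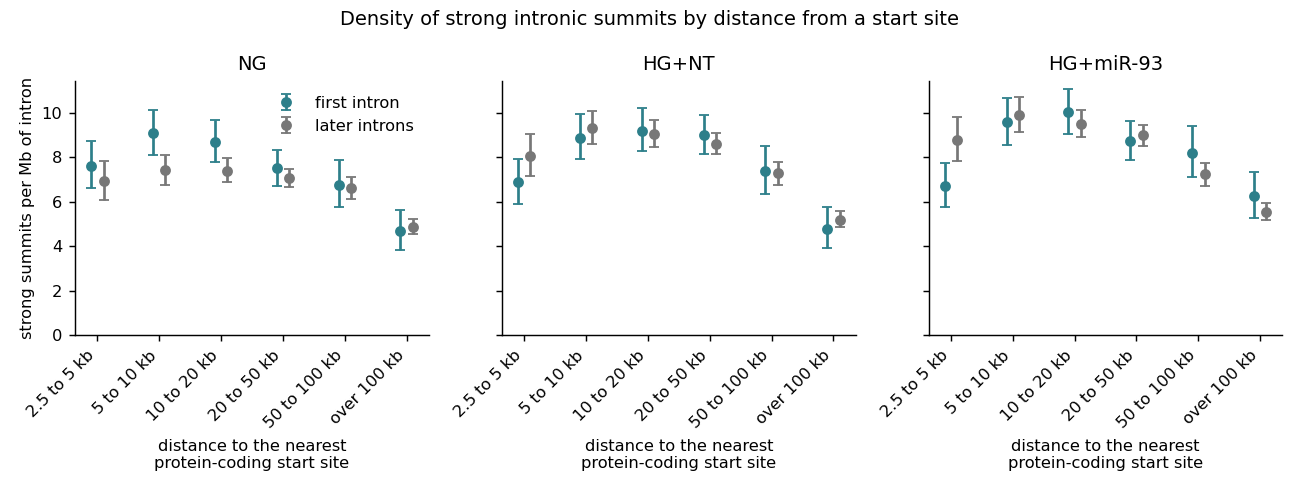
Strong summits per Mb of first and later introns (vertical axis) by distance to the nearest protein-coding TSS, in each list, with exact Poisson intervals. First introns are above later introns at 5 to 20 kb in NG and below them at 2.5 to 5 kb in HG+miR-93 (6.68 against 8.75), and densities fall beyond 100 kb.

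A small part of intragenic peaks was called at a q of 0.01 or less, that is −log10 q of 2 or more. These were 16 of the 73 such peaks in NG, 1 of 94 for HG+NT, in Phf19, and 0 of 1 for HG+miR-93. The NG peaks were tall there and low in the HG lists. Their pileups in NG ran from 11.6 to 178 with a median of 26.6. Where HG peaks covered the same base, HG+NT had 1.82 to 5.19 (median 4.15) and HG+miR-93 had 1.75 to 4.86 (3.50). At the 13 places so covered, the NG interval lay above both others.

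The peak with the highest −log10 p lay in intron 18 of Kdm4b (chromosome 17, position 56399157), which encodes a histone demethylase, with a pileup of 97.8 (85.3 to 112) over a local mean of 12, and no HG peak covered it. Sestd1, a gene for a protein that binds phospholipids, had 49.6 (40.8 to 59.7) in intron 1 and likewise no HG peak. Prex1, a gene for an activator of the GTPase Rac, had 42.4, 4.41 and 4.86 at intron 13. Their hosts had varied roles: Dct acts in melanin synthesis, Cux2 and Tcf7l1 encode transcription factors, Astn1 acts in neurons and Ndufs1 encodes a subunit of mitochondrial complex I. At Dct the pileup was 24.6, 4.15 and 2.72. In Rps6ka4, which encodes the kinase Msk2, the NG pileup was 178 (161 to 197) in an untranslated exon, but the local mean of the input was itself 112, so that the fold was 1.59. Only 2 of the 16 had an HG summit within 150 bp. The list was chosen by its NG values, so that lower values in the other lists are no finding.

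The strongest intragenic peaks of the HG lists, chosen by their own list's values, were covered by NG peaks as well, as was nearly every strong site of any class. Of 20000 sites, 19960 from HG+NT and 19956 from HG+miR-93 had a covering peak, or a summit within 150 bp, in both other lists. Such coverage is therefore no finding. At Phf19 the pileups were 12.5, 16.6 and 11.3. Nmnat2, which makes NAD, had 4.47, 10.6 (7.64 to 14.4) and 8.36 (6.05 to 11.3) in intron 7. At Mapk8ip1 the values were 7.59, 10.4 and 9.33. All intervals overlapped at Phf19 and Mapk8ip1, and also at Nmnat2, where NG had 2.14 to 8.21. Myh9, on chromosome 15, encodes the nonmuscle myosin heavy chain of podocyte stress fibres and held the strongest intragenic peak of HG+miR-93. This had 14.6 (11.5 to 18.3) in intron 3, against 10.9 (7.86 to 14.7) in HG+NT and 7.15 (4.08 to 11.6) in NG. These intervals overlapped. The HG+NT summit lay 1894 nt away and the NG summit 241 nt away. A coding exon of Magi2, a scaffold gene of the slit diaphragm, had 8.93, 8.31 and 7.58, and the HG+miR-93 summit lay 161 nt from the start of a transcript that is not protein-coding. Fbln1, a matrix protein gene, had 5.81, 9.09 and 7.58, with the NG summit 2193 nt from that of HG+NT.

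How far intragenic peaks recurred depended on their rank. Of the 100 strongest intragenic peaks, 18%, 34% and 29% had a summit of another list's 20000 strongest within 150 bp. Of those ranked after 2000, 4.31%, 7.51% and 7.47% did. Between pairs, 177 NG summits were found in HG+NT (2.74% of the NG and 2.28% of the HG+NT peaks) and 189 in HG+miR-93 (2.93% and 2.26%). The HG lists shared 574, or 7.39% and 6.87% of their intragenic peaks, and without chromosomes 8, 15 and 19 they shared 6.35% and 6.07%. Promoter summits were found far more often, at 18.7% to 42.3% in the same pairs, and intergenic ones at 2.69% to 8.15%.

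**Figure D4:**
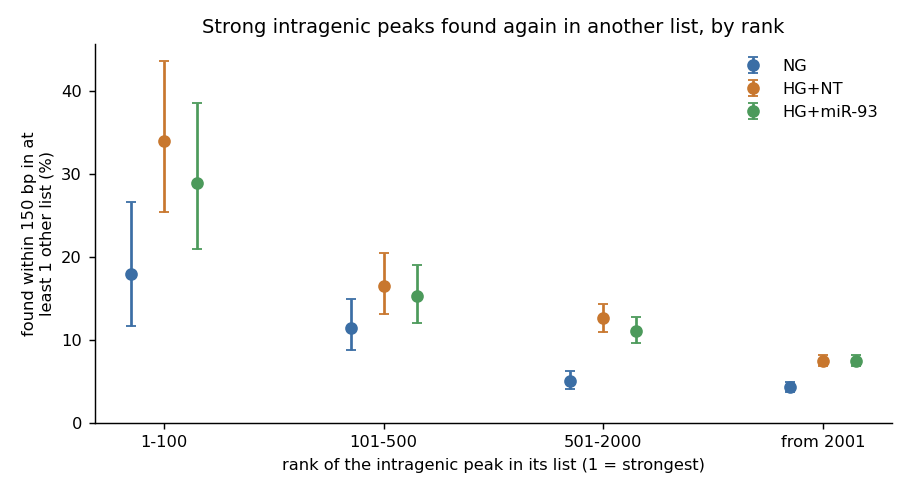
Percent of strong intragenic peaks with a summit within 150 bp among the 20000 strongest peaks of at least 1 other list (vertical axis) by rank in their own list (horizontal axis), with 95% Wilson intervals. The share falls from 18%, 34% and 29% for ranks 1 to 100 to 4.31%, 7.51% and 7.47% after rank 2000.

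Peaks found again had their own features. In NG 11.1% of them lay within 500 nt of the start of any annotated transcript, coding or not, against 4.88% of those not found. In HG+NT this was 7.06% against 4.84% and in HG+miR-93 7.51% against 5.09%. The KLF/SP motif stood in 11.7%, 9.56% and 9.15% of the windows found, against 5.08%, 6.09% and 6.41% of the others. In NG 12.3% of peaks found again were in coding exons, against 6.71%, and in the HG lists 15.4% (12.9 to 18.2) and 17.2% (14.7 to 20.1), against 12.3% (11.5 to 13.04) and 14.7% (14.0 to 15.6), with overlapping intervals. Of those found again, 27.7%, 35.2% and 36.9% lay on chromosomes 8, 15 and 19, against 13.3%, 27.5% and 29.6% of those not found. Median GC was 54.5%, 54.5% and 55% in those found and 49.5%, 52.0% and 53.5% in the rest.

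The 26 places common to all lists were 3.70% of the 703 such places of any class, of which 605 were promoters. They were 0.403%, 0.335% and 0.311% of the strong intragenic peaks, against 10.8%, 15.8% and 20.5% for promoters. Each of the 26 lay in a gene of its own. Later introns held 15, first introns 6 and coding exons 4. The place in Ptdss2 lay in the gene body, outside coding transcripts' exons and outside the introns of the longest protein-coding transcript. It was 996 nt from the nearest annotated TSS and 5572 nt from the nearest protein-coding one. The coding exons were those of Stox2, Fzd6, a Wnt receptor gene, Meis3, a homeobox gene, and Thsd1. The number of places is set by how close summits must be and how peaks are ordered: 4 within 50 bp, 79 within 500 bp, and 122 with peaks ordered by pileup.

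The pileups at these places rested on few fragments. For NG they ran from 4.47 to 12.5 (median 5.81), for HG+NT from 4.41 to 16.6 (6.62) and for HG+miR-93 from 4.08 to 11.3 (6.02), and at all 26 the 3 intervals overlapped. Each place was chosen for being strong in every list, so that this overlap is no finding. Itga2b, an integrin gene of platelets, had 10.3, 6.23 and 6.02. Ptdss2, which makes phosphatidylserine, had 10.7, 8.05 and 8.36. Veph1, in intron 1, had 7.59, 10.4 and 7.19. Among the rest of the highest were Kazn (7.15, 6.23 and 6.41 in intron 1), Rilpl1 (8.49, 8.31 and 6.02 in intron 4) and Zmiz1, a coregulator of transcription (7.15, 8.31 and 6.02 in intron 2). At Hk2 the pileup was 6.25, 5.19 and 6.02. Trpm6 had 6.70, 7.53 and 6.41, Ces1a 7.15, 6.75 and 6.02, Anxa2 5.36, 7.01 and 6.22, and Msi2 4.47, 6.49 and 5.25.

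The windows had a median GC of 57.0%, from 45.5% to 67.5%. KLF/SP motifs stood in 7 of the 26 windows, E-boxes in 5, AP-1 in 4 and CTCF in 0. Of the 26, 5 lay within 500 nt of the start of some annotated transcript, as in Itga2b (334 nt), Ces1a (161 nt) and Adgrg3 (124 nt). Chromosomes 8, 15 and 19 held 9 of them, of which 6 were on chromosome 8. The place in Gm20388 lies in a model that spans several genes of chromosome 8, so that its host gene is uncertain. With 2500 nt required from every annotated TSS, 16 such places were found.

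**Figure D5:**
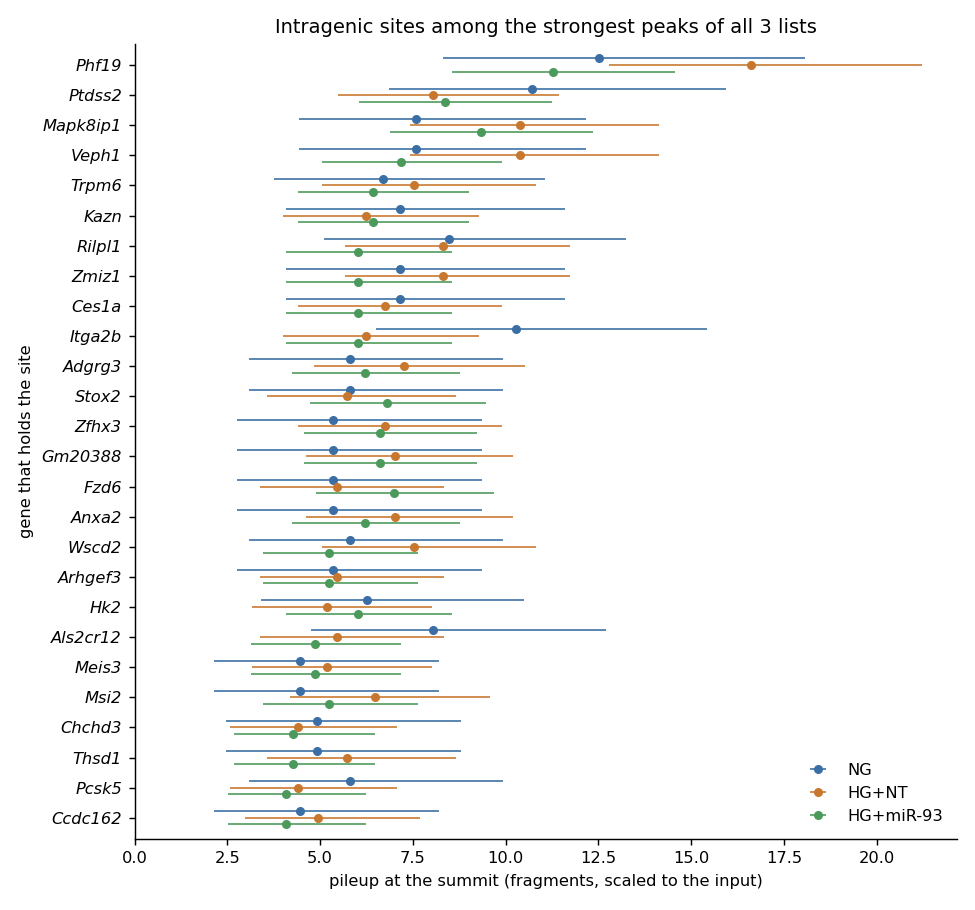
Pileup at the summit (horizontal axis, fragments scaled to the input) of the 26 intragenic places held by all lists, named by gene, with exact Poisson intervals, 1 point per list. Values run from 4.08 to 16.6 and the intervals of the lists overlap at every place.

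Motifs of the strong intragenic windows differed from those of promoters. AP-1, bound by Fos and Jun, stood in 7.14%, 6.54% and 5.98% of the strong intragenic windows. All intragenic peaks had 6.33%, 6.49% and 6.47%, and all peaks of the lists 6.49%, 6.72% and 6.68%. Strong intergenic windows had 6.82% (6.24 to 7.45), 8.19% (7.58 to 8.84) and 8.30% (7.70 to 8.94), above the strong intragenic ones in both HG lists. The motif was rarer in windows of high GC. At 50 to 55% GC it stood in 6.97% (5.938 to 8.17) of strong windows and 5.78% (5.61 to 5.943) of the rest in NG, which just overlapped. In that class HG+NT had 7.03% (6.18 to 7.98) and 5.81% (5.636 to 5.999), which did not overlap. HG+miR-93 had 6.22% (5.45 to 7.09) and 5.87% (5.70 to 6.04), which overlapped. At 45 to 50% GC the intervals were apart in NG, at 8.56% (7.34 to 9.96) and 6.44% (6.30 to 6.59). They overlapped there in HG+NT, at 7.35% and 6.74%, and in HG+miR-93, at 6.50% and 6.77%. From 55% GC up they overlapped in every list. Of the 500 strongest intragenic windows, 7.60%, 9.80% and 8% held AP-1. The E-box CAGCTG stood in 13.6%, 15.5% and 17.0% of the strong windows, against 10.2%, 10.8% and 11.3% of all intragenic ones and 9.66%, 10.3% and 10.8% of all peaks. At like GC this gap was not seen: at 50 to 55% GC the strong windows had 15.99%, 14.9% and 15.5% and the rest 15.1%, 15.4% and 15.9%, with overlapping intervals in each list. KLF/SP stood in 5.42%, 6.41% and 6.66%, against 2.59%, 2.71% and 2.76% of all intragenic ones and 2.92%, 3.19% and 3.16% of all peaks, far below the 53.5%, 59.6% and 52.3% of strong promoters. The ETS motif CCGGAAG stood in 4.72% (3.68 to 6.04, 59 windows) of the strong coding exon windows of HG+miR-93. HG+NT had 1.64% (1.01 to 2.65, 16 windows) and NG 2.43% (1.36 to 4.30, 11 windows). The NG interval overlapped that of HG+miR-93. All coding exon windows had 2.76%, 2.79% and 2.75% (all peaks 0.850%, 0.940% and 0.986%). At 60% GC or more, ETS stood in 3.94% (2.78 to 5.57) of strong intragenic windows of HG+miR-93 and 3.02% (2.52 to 3.63) of the rest, which overlapped. Coding exon windows alone were not compared at like GC.

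The CTCF motif was rare but higher in strong windows. It stood in 0.651%, 0.528% and 0.431% of them, against 0.181%, 0.170% and 0.166% of all intragenic peaks and 0.179%, 0.176% and 0.179% of all peaks. Strong intergenic windows held CTCF at 1.07%, 0.492% and 0.477%, so that this was not particular to intragenic peaks. When only the 5000 strongest peaks per list were used, CTCF stood in 1.52%, 1.14% and 0.839% of the intragenic windows. The difference from weaker peaks of like GC varied with the list and the GC class. In NG at 55 to 60% GC, 1.37% (0.800 to 2.32) of strong windows held the motif against 0.359% (0.295 to 0.436) of the rest. In HG+miR-93 the same class had 0.729% (0.461 to 1.15) and 0.345% (0.277 to 0.430). In HG+NT it had 0.731% (0.436 to 1.22) and 0.365% (0.292 to 0.457), which overlapped. At 50 to 55% GC NG had 0.797% (0.491 to 1.29) and 0.293% (0.257 to 0.334), which were apart. HG+NT had 0.389% (0.222 to 0.678) and 0.252% (0.216 to 0.294), and HG+miR-93 had 0.238% (0.121 to 0.469) and 0.248% (0.215 to 0.287), both overlapping. At 45 to 50% GC the intervals were apart in HG+NT, at 0.474% (0.241 to 0.934) and 0.163% (0.139 to 0.191). They overlapped there in NG, at 0.342% (0.157 to 0.745) and 0.188% (0.164 to 0.215), and in HG+miR-93, at 0.262% and 0.153%. For KLF/SP at 55 to 60% GC the gap was 10.9% against 7.77% in NG but 8.62% against 7.99% in HG+miR-93, where the intervals overlapped. At 50 to 55% GC NG had 4.78% (3.93 to 5.80) and 4.14% (4.01 to 4.29) for KLF/SP, which overlapped too.

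To compare conditions, sites were taken from the strongest peaks of the third list, so that neither list of a pair had chosen them, and the pileups of the peaks covering each site were set against each other. For both comparisons with NG the third list was the other HG list, so that the choice of sites was not neutral between HG and NG. How far this raised the shares higher than in NG was not tested. At intragenic sites HG+NT was higher than NG by 1.5-fold or more in 18.8% (1548 of 8224), against 16.5% of all sites, and lower by as much in 3.36%, against 4.30% of all sites. The median ratio was 1.16. HG+miR-93 was higher than NG in 18.7% (1416 of 7568), against 14.8% of all sites, and lower in 3.37%, against 6.59%, with a median of 1.14. For promoters the median of that pair was 0.849. Between HG+miR-93 and HG+NT the intragenic median was 0.998, with 3.70% higher (225 of 6073; all sites 2.78%) and 5.19% lower (all sites 5.92%). The shares higher than in NG lay close to the background, and the share of all sites that were lower for HG+miR-93 over NG was raised by promoters (17.8%). Intergenic sites had 4.33% (3.88 to 4.83) lower there, against 3.37% (2.986 to 3.8002) of intragenic ones, and flanks, from 500 to 2500 nt, 4.51% (3.42 to 5.93), with medians of 1.11 and 1.09. A covering peak often had its summit elsewhere. For HG+NT over NG the median distance from the intragenic site to that summit was 692.5 nt for HG+NT and 467 nt for NG. Only 480 of the 8224 sites had both summits within 150 bp, of which 21.3% were higher and 5% lower. Few single sites passed their own counting error: the interval left out 1 at 103 sites above and 12 below for HG+NT over NG, at 122 and 19 for HG+miR-93 over NG, and at 22 and 20 for HG+miR-93 over HG+NT. The pairs share lists and are not independent of each other.

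Sites higher than in NG were most frequent on chromosomes 8, 15 and 19. There, 33.5% of intragenic sites were higher in HG+NT than in NG, and 12.5% on the other chromosomes. For HG+miR-93 over NG the shares were 36.3% and 11.8%. For HG+miR-93 over HG+NT they were 3.99% and 3.66%. The density of strong intragenic peaks was uneven as well: it was 18.2 to 24.6 per Mb on these chromosomes in the HG lists and 4.07 to 12.7 on the others, whereas in NG all chromosomes had 6.01 to 8.61. Chromosomes 19 (8.61) and 15 (8.29) were the densest in NG too, and chromosomes 5 and 8 were next, both at 8.16. The part of this uneven density in the ratios was not tested. Without chromosomes 8, 15 and 19, the density over the genes was 7.13, 7.12 and 7.42. GC also moved with the ratio: HG+NT was higher than NG at 14.5% of sites with 45 to 50% GC and 23.9% of those at 60% or more.

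Many of the largest single ratios compared peaks whose summits lay far from the site. The 3 highest and 3 lowest sites of each pair were 18 in all, and at 9 of them the peak that covered the site in 1 of the lists was a broad one whose own summit was at a promoter. In Phf24 the ratio of HG+miR-93 to NG was 12.4 (3.28 to 105), with 11.1 against 0.893, but the HG+miR-93 summit lay 5493 nt away. In Dnpep, an aminopeptidase gene, it was 5.46, and in Podxl2, which encodes a relative of podocalyxin, 5.22, both with HG+miR-93 summits at promoters. Med26, which encodes a Mediator subunit, and Zfp41 were higher in HG+NT than in NG (6.40 and 5.52) with HG+NT summits at promoters. Ccnl2 (0.241, HG+NT over NG), Slc39a10 and Chd9 (0.239 and 0.258, HG+miR-93 over HG+NT) and Sh3tc2 (0.284, HG+miR-93 over NG) were the opposite, with the higher list at a promoter.

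At 7 of the sites both covering summits were intragenic. At Cdh4, a cadherin gene, HG+NT had 5.19 and NG 19.7, a ratio of 0.264 (0.148 to 0.458), at one of the 16 NG peaks with −log10 q of at least 2, and the HG+NT summit lay 16910 nt away. At Dlgap2 on chromosome 8 HG+NT had 4.93 and NG 0.893 (5.52, 1.33 to 48.9). Dlgap1 had 2.53 in HG+miR-93 and 0.519 in HG+NT (4.86, 1.10 to 44.4), and Fars2 2.33 and 0.779 (2.99, 0.808 to 16.5), from 2 and 3 fragments in HG+NT. At Pawr, HG+NT had 0.291 times the NG pileup, and at Cep128, HG+miR-93 had 0.335 times. Only at Cyp2c66, a cytochrome P450 gene with closely related neighbours on chromosome 19, were both summits within 150 bp of the site, with 1.75 in HG+miR-93 and 5.36 in NG (0.326, 0.121 to 0.844). The remaining extremes, Apbb2 (2.87) and A530032D15Rik (0.259), had a summit between 500 and 2500 nt from a TSS. With both covering summits intragenic, an alternative added after the data had been seen, the shares were nearly the same: 18% higher and 3.37% lower for HG+NT over NG, and 18% and 3.44% for HG+miR-93 over NG.

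The genes that held strong intragenic peaks were compared by their number per Mb of gene body more than 2500 nt from a TSS, which for all genes was 7.29, 8.74 and 9.37. Of 18251 genes with such a body, 7438 (40.8%) held a strong intragenic peak in some list and 1435 (7.86%) in all lists. The gene lists were fixed with earlier results of these lists known, so that their densities are a description.

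Podocyte genes had intervals that included the values of all genes. Their 27 genes had 8.27 (5.82 to 11.4), 6.04 (3.98 to 8.78) and 7.60 (5.26 to 10.6) strong intragenic peaks per Mb. At promoters, 12, 12 and 6 of the 28 podocyte genes had a strong peak, or 42.9%, 42.9% and 21.4%, against 29.2%, 20.1% and 15.1% of all genes. Nphs1, which encodes the slit diaphragm protein nephrin, had no strong promoter peak in any list, nor had Podxl, while Actn4, Myh9 and Inf2 had one in all. Trpc6, a calcium channel gene, held no strong intragenic peak in any list. Synpo, which encodes the actin-binding synaptopodin, held 0, 2 and 3, and Plce1, on chromosome 19, held 1, 5 and 7. Col4a3, a gene for a collagen of the glomerular basement membrane, held 4, 0 and 1.

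Genes of the matrix and TGF-β pathway had intervals above the values of all genes, with 17.2 (12.01 to 23.7), 20.01 (14.4 to 27.1) and 18.6 (13.2 to 25.4) per Mb, and 16.4, 15.3 and 13.1 without chromosomes 8, 15 and 19. Of 31 genes, 17, 20 and 19 held at least 1 strong peak (54.8%, 64.5% and 61.3%), against 21.7%, 22.8% and 23.7% of all genes, which differ in length. A share above that of all genes was not particular to matrix genes. Podocyte genes had 63.0%, 48.1% and 55.6%, and genes of glucose and insulin signalling 52.2%, 56.5% and 34.8%. Neuronal genes, described below, had 91.7%, 87.5% and 62.5%. Col4a2, a collagen IV gene on chromosome 8, held 3, 9 and 8. Smad6 and Smad7, inhibitors of the pathway, had highest pileups of 7.59, 7.53 and 7.19 and of 8.04, 7.01 and 7.38. Mmp2, a gelatinase gene on chromosome 8, held 0, 3 and 1, and Timp3, an inhibitor of such enzymes, held 4, 0 and 0.

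Genes of glucose and insulin signalling had 17.5 (11.6 to 25.5), 14.3 (8.96 to 21.6) and 13.6 (8.45 to 20.9) per Mb. Igf1r, the receptor for insulin-like growth factor, held 13, 3 and 6 strong intragenic peaks, with the highest at 12.5, 5.45 and 6.41. Insr, the insulin receptor gene on chromosome 8, held 2, 4 and 6, highest at 9.38, 8.57 and 7.19 in intron 2. Hk2 held 1, 2 and 4. Slc2a1, the gene of the glucose carrier GLUT1, held 1 in each list, at 7.15, 5.71 and 5.44. Txnip, Irs2, Pdk4, Pfkp and Mcm7 held none in any list.

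Actin and adhesion genes had 12.5 (9.29 to 16.5), 9.77 (6.95 to 13.4) and 10.02 (7.16 to 13.6) per Mb. Tns1, a tensin gene, held 9 in NG and 0 in both HG lists, with the highest NG pileup at 11.2. Palld, which encodes palladin, held 2, 8 and 7 on chromosome 8. Amotl2, which links junctions to YAP, had 13.0, 7.27 and 7.38, each in intron 6. The genes of AP-1, TEAD and YAP factors had 10.5, 11.1 and 10.5 per Mb, with intervals that included the values of all genes. Runx1 held 5, 5 and 3, with 10.1 in intron 6 in HG+NT, and Nfix, on chromosome 8, held 1, 3 and 4.

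Genes that mark other cell types were counted in the same way. Neuronal genes, which are long, had 3.24 (2.58 to 4.02), 4.92 (4.10 to 5.86) and 4.38 (3.60 to 5.26) per Mb, below all genes, and 1 of 24 had a strong promoter peak in each list. They held 83, 126 and 112 strong intragenic peaks, of which 69, 83 and 52 lay off chromosomes 8, 15 and 19. On chromosome 8, Csmd1 held 6, 18 and 26 and Dlgap2 1, 18 and 27. Without chromosomes 8, 15 and 19 the neuronal genes had 3.14, 3.77 and 2.36 per Mb. Genes of liver, tubule, immune and endothelial cells had 7.93 (4.10 to 13.9), 1.98 (0.409 to 5.79) and 8.59 (4.57 to 14.7), with strong promoter peaks in 2, 0 and 1 of 24. Of these genes 9, 3 and 7 held a strong intragenic peak (37.5%, 12.5% and 29.2%), against 21.7%, 22.8% and 23.7% of all genes, while Alb, which encodes albumin, Umod of the tubule and Cd3e of T cells held none in any list.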

How the data were processed

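DNase-Seq of 2 replicates for each of 3 conditions, with 1 genomic DNA input, was processed by the authors with CASAVA 1.8.2, Bowtie and MACS2 on mm10, and both replicates of a condition entered 1 deposited peak list. The depth of each replicate was not given in the sources used here. The authors' lists hold, for each peak, the fold enrichment of the summit over the input, −log10 p and −log10 q, all as deposited. From fold and −log10 p, the whole fragments and the local input mean (in steps of 0.02) were recovered, with a single solution for 99.3% (NG), 96.5% (HG+NT) and 94.3% (HG+miR-93) of peaks, and the scaled pileup was computed from them. Where several solutions existed the one with fewest fragments was taken, and ratios between lists used only single solutions. On 4000 simulated peaks per list the fragments were recovered in 100% (NG and HG+NT) and 99.975% (HG+miR-93).

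The strongest 20000 peaks of a list were taken by −log10 p, then by fold, on chromosomes 1 to 19. The lowest −log10 p taken was 1.81 in each list, and in NG 10809 peaks shared that value, of which 2317 were taken. Protein-coding genes and TSSs came from GENCODE vM21 and sequence from GRCm38. Exons took precedence over introns where transcripts differed. Shares have 95% Wilson intervals, pileups and densities exact Poisson intervals and their ratios exact intervals for a ratio of Poisson counts. Motifs were sought on both strands of 200 bp around summits and may overlap each other; CTCF was sought by its consensus. The sites of a ratio came from the third list. Named genes were the places common to all lists with the highest of their lowest pileups, the 3 highest and 3 lowest ratios of each pair, and, for each gene list, members with strong peaks. No gene held more than 1 of the common places. Other named genes were chosen after their values were seen. The members, gene lists and comparisons were chosen with earlier results of these data known. Alternatives were other numbers and orders of peaks, distances, windows, chromosomes and folds. Software was scipy 1.17.1 and numpy 2.4.6 with pandas 2.3.3 under Python 3.11.15, and figures came from matplotlib 3.10.9.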

Additional observations from a re-analysis of the deposited data

How the results depend on the processing

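Triplets are in the order NG, HG+NT and HG+miR-93. Of 199 values under alternatives, 93 moved by less than their counting interval, 105 moved by more and 1 reversed. No paired analysis was possible because each condition has 1 joint list. For the same reason no replicate was left out. The alternatives for coding exons, for gene lists and for covering summits were chosen after seeing the data. The causes were not tested.

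The intragenic share of the strongest peaks was higher in the HG lists than in NG under all alternatives except the q limit of −log10 q of at least 2, with 21.9%, 1.06% and 0.0%. It was 34.3%, 41.3% and 44.2% without chromosomes 6, 8, 15 and 19, 13.2%, 26.2% and 35.8% among the 5000 strongest, 37.8%, 43.7% and 44.96% among the 50000 strongest, 24.5%, 30.3% and 31.6% ordered by pileup, and 36.0%, 41.7% and 43.9% ordered by fold. It was 35.2%, 41.5% and 44.7% beyond 1000 nt, 29.5%, 35.5% and 38.2% beyond 5000 nt, and 27.5%, 32.8% and 35.3% beyond 2500 nt from every annotated TSS. Without repeat-masked summits it was 33.3% in NG and 39.5% in HG+NT. Coding exons took 1.00%, 3.98% and 7.28% of the 5000 strongest, 1.70%, 4.03% and 4.94% by pileup, and 5.56% (HG+NT) and 6.96% (HG+miR-93) without chromosomes 6, 8, 15 and 19.

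The ratio of first to later introns reversed in NG among the 50000 strongest, at 0.986. It was 1.58 (NG) and 1.30 (HG+NT) among the 5000 strongest and 1.61, 1.45 and 1.37 by pileup. The common places numbered 8 among the 5000 strongest, 83 among the 50000 strongest, 122 by pileup, 16 away from every annotated TSS, 4 within 50 bp and 79 within 500 bp.

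AP-1 stood in 7.90%, 8.01% and 6.88% of intragenic windows among the 5000 strongest, in 7.43% (HG+NT) and 6.54% (HG+miR-93) by pileup, in 3.63%, 3.36% and 2.91% of 100 bp windows and in 13.4%, 12.6% and 11.9% of 400 bp windows. CTCF stood in 1.52%, 1.14% and 0.838% among the 5000 strongest, in 1.30% (NG) and 0.602% (HG+miR-93) by pileup, in 0.339% (NG) and 0.366% (HG+NT) among the 50000 strongest, in 0.455% (NG) away from every annotated TSS, in 0.434%, 0.361% and 0.311% of 100 bp windows and in 1.41%, 0.811% and 0.706% of 400 bp windows.

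Shares of sites past 1.5-fold moved as follows. Without chromosomes 6, 8, 15 and 19, 11.5% were higher and 4.69% lower in HG+NT than in NG, and 10.8% and 4.60% in HG+miR-93 than in NG. Among the 5000 strongest these were 29.9% and 1.01%, and 25.8% and 2.25%, with 2.56% higher for HG+miR-93 over HG+NT. By pileup they were 29.5% and 2.50% for HG+NT over NG, 30.6% higher for HG+miR-93 over NG, and 4.61% lower for HG+miR-93 over HG+NT. Among the 50000 strongest, 4.01% were lower in HG+NT than in NG, 6.11% lower for HG+miR-93 over HG+NT and 20.6% higher in HG+miR-93 than in NG. At 2-fold the shares higher and lower were 4.40% and 0.328% for HG+NT over NG, 0.609% and 0.774% for HG+miR-93 over HG+NT, and 4.81% and 0.423% for HG+miR-93 over NG. With own summits within 150 bp they were 21.3% and 5.00% for HG+NT over NG and 17.5% and 6.29% for HG+miR-93 over NG, with 7.31% lower for HG+miR-93 over HG+NT. Per Mb, the densities of all genes without chromosomes 8, 15 and 19 were 7.12 (HG+NT) and 7.42 (HG+miR-93), of neuronal genes 3.77 and 2.36, and of matrix genes 13.1 in HG+miR-93.

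Intervals cover counting error only, and spread between cultures is unknown. With 12 to 24 fragments at the median strong intragenic summit, few ratios at single places passed their own counting error.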
